A study of Mus musculus with 4 samples.

Results

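Runx3 binding was examined at Cacna1e, Zfhx3 and Asah2, 3 genes taken from those that the study lists as responsive to the loss of Runx3 and chosen by the number of Runx3-bound regions (peaks) around them, so that this number is a description and was not tested. The peaks were those of the deposited list whose centre lay in the gene body or within 100 kb of it, with gene bodies from GENCODE M1 on mm9. This gave 8 of the 15121 peaks. Zfhx3 had 6 of them, and Cacna1e and Asah2 had 1 each. The name of a peak-dense locus therefore did not hold for Cacna1e and Asah2 at this distance, and both gene bodies held 0 peaks. The many peaks for which the genes were picked, 14 for Cacna1e and 9 each for Zfhx3 and Asah2, lie in wider regulatory domains. These follow the rule of the GREAT tool, applied here to all annotated genes, coding and noncoding. Of these 32 peaks, 24 lie over 100 kb upstream. A domain with at least 9 peaks was found for 0.501% of protein-coding genes. These domains are long, with 766, 1090 and 514 kb for Cacna1e, Zfhx3 and Asah2, against a median of 59.3 kb for protein-coding genes. At the average peak density of the list they would hold 4.53, 6.43 and 3.04 peaks.

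The data are Runx3 ChIP-seq of the CD11chiMHCII+CD4+ subset of splenic DC from WT mice, without any treatment. There were 2 Runx3 immunoprecipitates and 2 samples of whole cell extract as control. Each sample was pooled from about 15 mice, and the strain was given as C57BL/6 for 3 samples and as C57BL/7 for the other, a control. The antibody was a polyclonal one made in the laboratory. Age and sex of the mice were not given in the sources used here. The authors called peaks once, on both Runx3 samples against both controls, so that each peak has 1 position and 1 score and no value per replicate. The values below therefore carry no replicate error, and the labelled cell type cannot be checked against its markers in a list of peaks. MACS2 scores, whose unit is not stated, were compared only among peaks of the list, in which they span 1.33 to 309 around a median of 12.1.

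Runx3 is a runt-domain transcription factor that binds DNA together with its partner CBF-beta and recognises the hexamer TGTGGT. Depending on the gene and its cofactors it can raise or lower transcription. Cacna1e encodes the pore-forming subunit of the R-type voltage-gated calcium channel, best known from neurons and endocrine cells. Zfhx3, also named Atbf1, is a very large transcription factor with many zinc fingers and homeodomains that acts in neuronal differentiation and in the circadian clock. Asah2 is neutral ceramidase, which cleaves the lipid ceramide into sphingosine and a fatty acid.

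The sequences below are the central bases of 6 peaks, at most 300 per peak, on the plus strand of NCBIM37, the assembly also named mm9. They are the peak with the highest score within 100 kb of each gene and the peak with the highest score in each regulatory domain, and they show where the RUNX hexamer sits. TGTGGT, or ACCACA where it lies on the minus strand, is in capitals, and distances of a hexamer from the peak centre below are counted to its middle.
Cacna1e upstream peak within 100 kb (chr1:156641579-156641878, score 26.0): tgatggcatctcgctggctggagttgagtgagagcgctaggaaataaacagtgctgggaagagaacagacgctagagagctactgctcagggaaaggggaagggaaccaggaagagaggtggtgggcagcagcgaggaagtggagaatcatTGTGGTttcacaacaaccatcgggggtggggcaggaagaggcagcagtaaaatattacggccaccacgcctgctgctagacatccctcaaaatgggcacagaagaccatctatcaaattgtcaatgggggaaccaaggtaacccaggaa
Cacna1e domain peak with the highest score (chr1:156862136-156862435, score 187): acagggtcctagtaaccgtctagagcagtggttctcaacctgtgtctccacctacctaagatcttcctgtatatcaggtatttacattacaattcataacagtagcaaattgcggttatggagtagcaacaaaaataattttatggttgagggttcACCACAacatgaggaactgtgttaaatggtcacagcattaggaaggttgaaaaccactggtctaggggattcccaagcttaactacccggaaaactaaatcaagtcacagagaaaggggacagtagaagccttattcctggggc
Zfhx3 intron 1 peak (chr8:111262173-111262472, score 19.4): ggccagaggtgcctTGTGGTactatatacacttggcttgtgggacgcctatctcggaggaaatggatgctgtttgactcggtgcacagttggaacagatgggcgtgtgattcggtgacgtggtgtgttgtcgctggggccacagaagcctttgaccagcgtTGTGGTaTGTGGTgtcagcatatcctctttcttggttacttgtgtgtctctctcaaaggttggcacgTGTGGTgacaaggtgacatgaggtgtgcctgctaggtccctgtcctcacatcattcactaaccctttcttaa
Zfhx3 far upstream peak (chr8:110564664-110564963, score 68.1): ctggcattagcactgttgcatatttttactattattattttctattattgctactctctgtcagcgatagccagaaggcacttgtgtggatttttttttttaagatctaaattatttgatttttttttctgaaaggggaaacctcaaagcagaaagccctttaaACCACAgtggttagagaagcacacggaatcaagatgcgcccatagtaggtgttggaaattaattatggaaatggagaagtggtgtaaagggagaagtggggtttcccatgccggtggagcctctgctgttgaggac
Asah2 upstream peak (chr19:32186864-32187163, score 14.2): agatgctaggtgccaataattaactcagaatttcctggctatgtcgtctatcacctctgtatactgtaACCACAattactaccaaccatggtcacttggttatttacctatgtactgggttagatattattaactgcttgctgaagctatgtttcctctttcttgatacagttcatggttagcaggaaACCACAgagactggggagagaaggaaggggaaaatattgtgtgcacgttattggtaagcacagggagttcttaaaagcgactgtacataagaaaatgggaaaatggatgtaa
Asah2 domain peak inside Sgms1 (chr19:32341108-32341407, score 83.4): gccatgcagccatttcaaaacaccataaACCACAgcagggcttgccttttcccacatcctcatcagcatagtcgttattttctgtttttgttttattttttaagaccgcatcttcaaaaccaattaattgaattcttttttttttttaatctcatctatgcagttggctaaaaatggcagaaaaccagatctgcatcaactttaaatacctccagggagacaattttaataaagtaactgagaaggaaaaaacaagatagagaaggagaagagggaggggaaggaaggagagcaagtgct

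Cacna1e (ENSMUSG00000004110.7) lies on the minus strand of chromosome 1 from 156239649 to 156573049. With a body of 333 kb it is among the longest genes, since only 1.95% of the 22367 protein-coding genes are longer. Not 1 peak was centred in its 47 exons and the introns between them. Of the 954 protein-coding genes with a body of 200 kb or more, 549 likewise held 0 peaks (57.5%). The body holds TGTGGT 242 times on both strands, or 0.726 per kb, and the sequenced genome holds 0.772 per kb. The annotated TSS fell in a stretch of 697 kb between neighbouring peak centres, longer than 94.9% of such stretches in the list, whose median was 34.1 kb.

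The only peak within 100 kb of Cacna1e, from 156641530 to 156641926, had its centre 68679 bp upstream of the TSS. Its score of 26.0 exceeds that of 78.8% of the list. It is 397 bp wide and holds TGTGGT 1 time, 4 bp from its centre, as printed above. No other gene lies between it and Cacna1e. At the average density of the list, 5.91 peaks per Mb, a window of this size would hold 3.15 peaks. At least 1 peak within 100 kb was found for 72.1% of protein-coding genes, and 27.9% had none.

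The regulatory domain of Cacna1e spans 766 kb from 156163657 to 156929396, and all 14 peaks in it lie upstream of the TSS. A domain with at least as many peaks was found for 0.0760% of protein-coding genes, but peak number is what the gene was picked for. Past the peak at 68.7 kb, a pair lay 5376 bp apart at 123 and 129 kb from the TSS. The first of the pair scored 5.81 and holds no TGTGGT. The second scored 84.6, which ranks 286 in the list, and holds TGTGGT 3 times.

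The other 11 peaks of the Cacna1e domain formed a cluster of 64.1 kb, between 156853651 and 156918140, that began 281 kb from the Cacna1e TSS. Neighbouring centres were 1253 bp to 13.7 kb apart, with a median of 5.54 kb. Scores in the cluster were 4.79 to 187, and their median of 13.4 was close to that of the whole list. The highest, from 156861994 to 156862576, ranks 12 of 15121 and holds TGTGGT 9 bp from its centre. The cluster peaks with the next scores, 58.0 and 31.3, were centred at 336 and 303 kb from the Cacna1e TSS. TGTGGT was present in 6 of the 11 peaks.

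All 11 cluster peaks were nearer to the TSS of Gm9530, a long intergenic noncoding RNA, than to that of Cacna1e, and 3 were centred inside Gm9530. The nearest protein-coding TSS for all of them was that of Ier5, an immediate early response gene, at 28829 to 92946 bp. Ier5 (156943497 to 156946766, minus strand) had 2 peaks in its short body, 1 of them 80 bp from its TSS with a score of 7.84. Only 3 of the 14 peaks of the Cacna1e domain had Cacna1e as their nearest gene, and which gene any of the peaks acts on was not measured.

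Zfhx3 (ENSMUSG00000038872.7) lies on the plus strand of chromosome 8 from 111238544 to 111485521, has a body of 247 kb with 10 exons, and differed from the other two in that its peaks were inside the gene. Of its 6 peaks within 100 kb, 5 were centred in the body. At least 5 peaks in the body were found for 0.818% of protein-coding genes, and for 7.23% of the 954 genes of 200 kb or more. At least 6 within 100 kb were found for 20.6%. At the density of the list the window would hold 2.64 peaks. The gene was picked for having many peaks, so these shares are a description and were not tested.

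The first 4 intragenic peaks were all in intron 1, at 6412, 7519, 23778 and 34511 bp from the TSS, and spanned 28.1 kb. Their scores were 6.57, 5.36, 19.4 and 6.57. The fifth, in intron 3 and 134004 bp from the TSS, scored 3.76, the lowest in the 3 domains. The peak outside the body, 22787 bp upstream, scored 7.84. Only the peak at 23778 bp exceeded the list median, and the median of the 6 was 6.57. The peak nearest to the TSS, from 111244830 to 111245082, is 253 bp wide, the smallest width that any peak of the list has. Zfhx3 binding was thus spread over several peaks of mostly low score, none of them at the annotated TSS.

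The strongest of them, from 111262089 to 111262556, holds TGTGGT 4 times, all on the plus strand and the most of any peak in the 3 domains. In the sequence printed above 2 of the copies, beginning at 111262334 and 111262341, are separated by a single base and lie 14 and 21 bp from the centre. The others lie 81 and 133 bp from it. The peaks at 34511 and 134004 bp hold TGTGGT 1 time each. The other 3 peaks within 100 kb hold none, and that at 7519 bp holds the variant TGCGGT.

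Beyond 100 kb the Zfhx3 domain, 1090 kb long, held 3 peaks in a stretch upstream without annotated genes. A pair 1066 bp apart, 531 and 532 kb from the TSS, scored 21.5 and 7.53. The peak from 110564516 to 110565110, 673731 bp upstream, scored 68.1 and ranks 507. It is the strongest peak of the domain and holds TGTGGT 17 bp from its centre. Its nearest protein-coding TSS was that of Psmd7, a proteasome subunit gene, 452431 bp away, whereas for the other 8 peaks of the domain it was that of Zfhx3.

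Asah2 (ENSMUSG00000024887.8) lies on the minus strand of chromosome 19 from 32059144 to 32135959 and is the shortest of the genes, with a body of 76.8 kb, 22 exons in its longest coding transcript and 2 annotated transcripts. Its only peak within 100 kb, from 32186804 to 32187223, was centred 51054 bp upstream, between genes, and scored 14.2. It holds TGTGGT 2 times, 41 and 79 bp from the centre and both on the minus strand. On the other side no peak was centred within 647 kb of the body, past A1cf, which encodes the APOBEC1 complementation factor and held 0 peaks. The body holds TGTGGT 64 times, or 0.833 per kb. The stretch between peak centres around the annotated TSS was 775 kb, longer than 95.3% of all stretches.

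The position of this peak relative to Asah2 depended on the annotation. The RefSeq promoter of Asah2 matched 1 place on this assembly, with a start at 32177630, which is 41671 bp upstream of the GENCODE M1 TSS. The peak lay 9383 bp upstream of that start. With the body drawn up to the RefSeq start, 3 peaks would lie within 100 kb of Asah2. The RefSeq promoters of Cacna1e and Zfhx3 matched within 1 bp of the GENCODE M1 TSS. RefSeq models on GRCm38.p6 extend further than those of GENCODE M1 for all 3 genes, and their other ends were not placed on mm9.

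The other 8 of the 9 peaks in the Asah2 domain, which spans 514 kb from 31944251 to 32458706, were all centred inside the neighbouring gene Sgms1 (32197217 to 32464204, minus strand). Sgms1 encodes sphingomyelin synthase, which uses ceramide, the substrate of Asah2, to make sphingomyelin. In GENCODE M1 the nearest annotated TSS was that of a Sgms1 transcript for all 9 peaks of the domain. For 0 of them was it that of an Asah2 transcript. The peak outside Sgms1 lay 47700 bp from that TSS but 9383 bp from the RefSeq start of Asah2. The 8 peaks spanned 143 kb with a median distance of 13.2 kb between neighbours, and scored 4.79 to 83.4 with a median of 14.1. The strongest, from 32340783 to 32341732, ranks 304 and at 950 bp is the widest peak of the 3 domains. It was 10159 bp from the nearest Sgms1 TSS. One peak, from 32284843 to 32285193 with a score of 4.90, lay 462 bp from the TSS of 1 of the 15 annotated Sgms1 transcripts. Of the 8 peaks 6 hold TGTGGT.

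**Figure D1:**
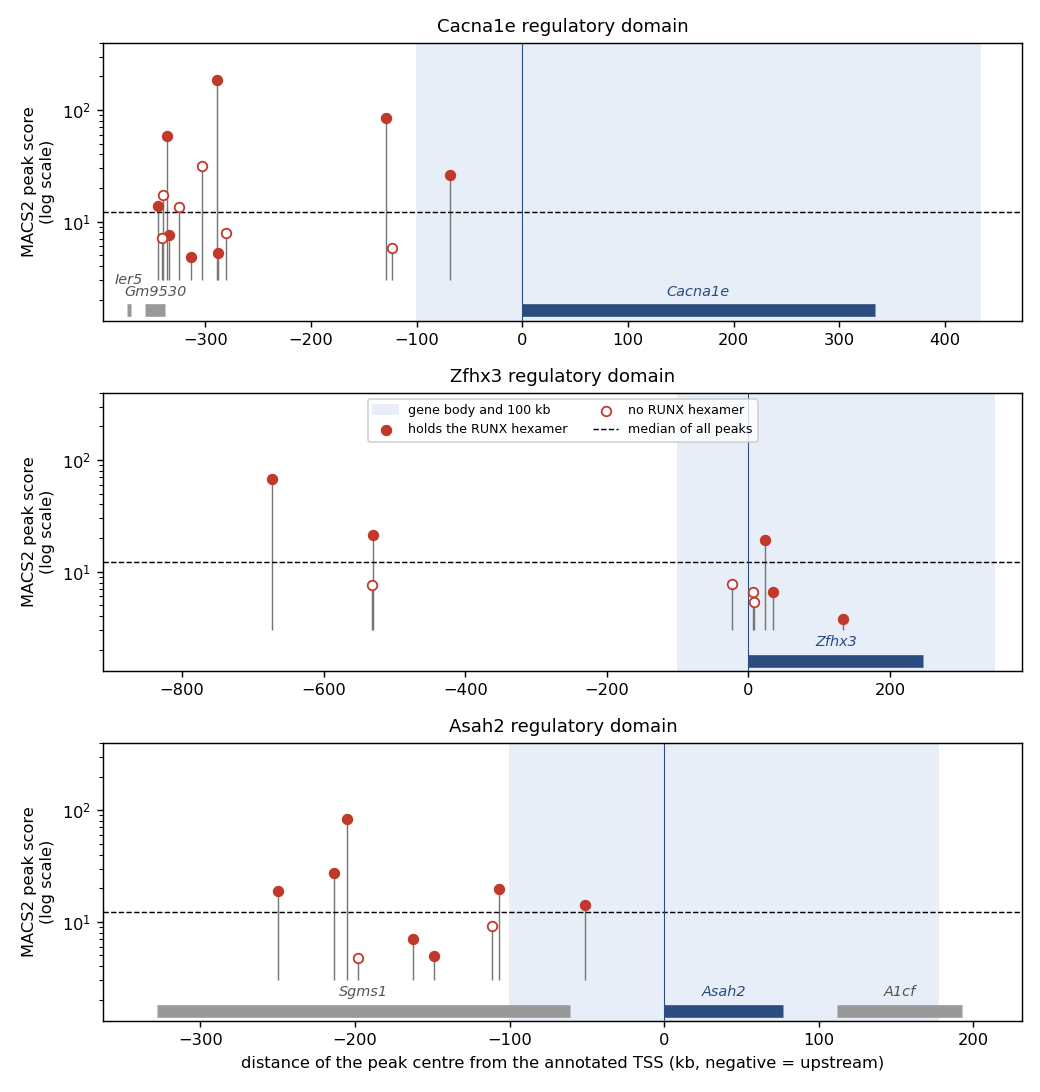
Peaks in the regulatory domains of Cacna1e, Zfhx3 and Asah2. The x axis gives the distance of the peak centre from the annotated TSS in kb, with upstream negative, and the y axis the MACS2 peak score on a log scale. Filled points hold the RUNX hexamer, open points do not, bars mark gene bodies, shading marks the body with 100 kb on either side, and the dashed line is the median of the list, 12.1. Of the 32 peaks, 8 lie in the shaded regions, and the 2 highest of the Cacna1e domain and the highest of each other domain lie outside them.

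The peaks just inside and just outside the limit of 100 kb were at 68.7 and 123 kb from the Cacna1e body, with scores of 26.0 and 5.81. For Asah2 they were at 51.1 and 107 kb, with scores of 14.2 and 19.8. For Zfhx3 they were at 22.8 and 531 kb, with scores of 7.84 and 21.5. On the downstream side of the genes 0 peaks lay within the limit, and the nearest were at 295, 602 and 647 kb for Cacna1e, Zfhx3 and Asah2.

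**Figure D2:**
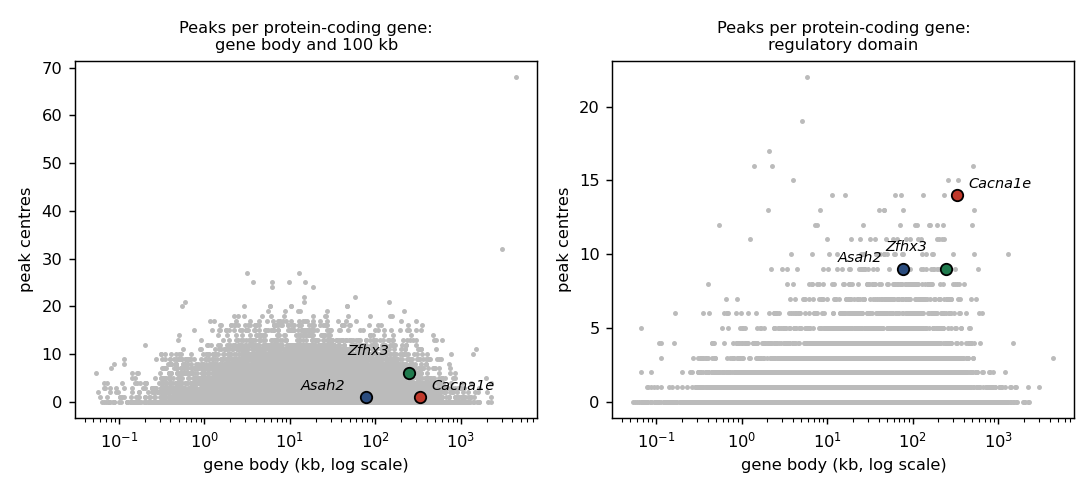
Number of peak centres per protein-coding gene against the length of the gene body in kb on a log scale. The left panel counts the body and 100 kb on either side, the right panel the regulatory domain, and each grey point is 1 of 22367 genes. Cacna1e and Asah2 have 1 peak in the left panel and 14 and 9 in the right, and Zfhx3 has 6 and 9.

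The 8 peaks within 100 kb scored between 3.76 and 26.0, and their median was 7.21. Of these peaks 3 were at or above the list median, where 50.0% of all peaks are, and 1 was at or above the upper quartile of 23.2, where 25.4% are. The 24 domain peaks beyond 100 kb scored 4.79 to 187 with a median of 13.7, and 7 were at or above the upper quartile. Their ranges overlapped. Width followed the same order, with a median of 275 bp within 100 kb, 428 bp beyond and 406 bp in the list. The scores come from the call that also gave the peak numbers, so the differences were not tested.

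**Figure D3:**
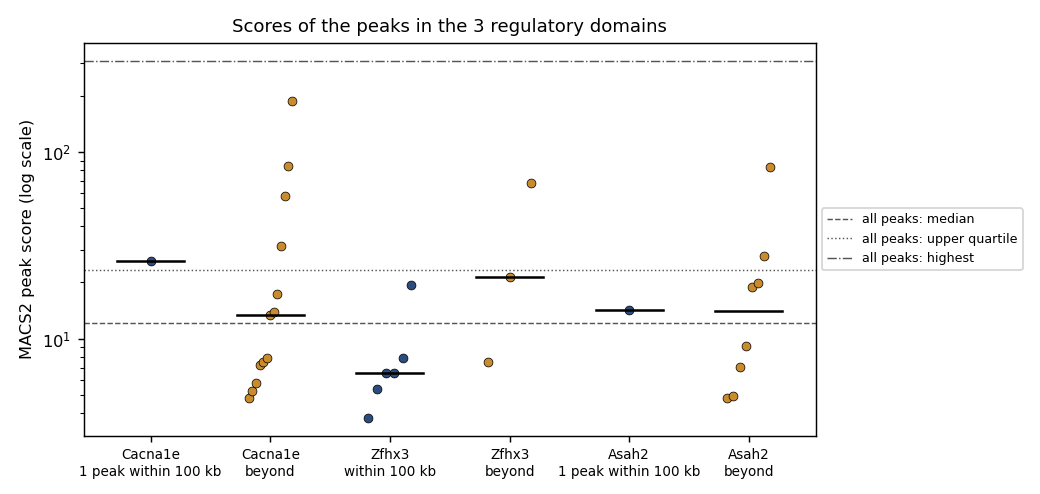
MACS2 peak scores on a log scale for the peaks of each gene within 100 kb and for those of its regulatory domain beyond 100 kb. Each point is 1 peak of the pooled call, short bars are medians, and the lines mark the median, the upper quartile and the highest score of all 15121 peaks. The 6 Zfhx3 peaks within 100 kb lie between 3.76 and 19.4, and the peak of the Cacna1e domain at 187 is the highest shown.

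Most of the peaks were over 10 kb from any annotated TSS, though the nearest domain peak lay 462 bp from one. The genes were picked for peaks in wide domains, so these distances are a description and were not tested. Within 10 kb of a TSS lay 2 of the 8 peaks within 100 kb and 5 of all 32 domain peaks, against 65.4% of the list. Farther than 50 kb lay 2 of the 8 and 11 of the 32, against 8.78% of the list. The median distance was 29.1 kb for the 8 peaks, 23.6 kb for the 32 and 3.70 kb for the list. GC content was 40.5% to 50.2% in the 8 peaks, with a median of 48.3%, and the median of the list was 50.7%. In a protein-coding gene body were centred 52.4% of all peaks, and 5 of the 8 were in introns of Zfhx3.

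Sequence was not used to pick the genes, and 5 short motifs were searched on both strands of each whole peak and of a window of equal width 10 kb downstream. They were the RUNX hexamer TGTGGT and its variant TGCGGT, the hexamer TGACGT related to zDC (Zbtb46), the AP-1 motif TGANTCA and the ETS core GGAAGT. For windows, downstream means toward higher coordinates, whatever the strand of the gene. For Cacna1e and Asah2, which are on the minus strand, this is the upstream direction of the gene. No matches of different motifs overlapped in these peaks. TGTGGT was present in 5 of the 8 peaks within 100 kb, or 62.5%, against 54.0% of all peaks. The Wilson 95% interval of this share was 30.6% to 86.3%, for counting error alone. Of their windows 3 held it, or 37.5%, against 30.9% of the windows of the whole list. In 3 pairs only the peak had the hexamer and in 1 only the window (two-sided exact McNemar test, p = 0.625). With 4 unlike pairs the smallest p is 0.125, so a difference could not be detected in these 8 peaks. For the other 4 motifs the smallest p was 0.375, that of GGAAGT, and after Benjamini-Hochberg adjustment over the 5 motifs all exact McNemar p were 1.

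The same comparison was extended to all peaks of the 3 domains after the values were seen, and 31 of the 32 peaks had a usable window. TGTGGT was in 20 of these 31 peaks (64.5%) and in 9 windows (29.0%). In 13 pairs only the peak had it and in 2 only the window (two-sided exact McNemar test, p = 0.00739, adjusted p = 0.0188). GGAAGT was in 19 peaks (61.3%) and 7 windows (22.6%), with 15 pairs in which only the peak and 3 in which only the window held it (two-sided exact McNemar test, p = 0.00754, adjusted p = 0.0188). In the whole list GGAAGT was in 52.8% of peaks and 23.5% of windows. TGCGGT was in 5 peaks and 1 window, TGACGT in 2 and 1, and TGANTCA in 2 and 5 (exact McNemar test, adjusted p of 0.208, 1 and 0.469). Peaks of 1 domain are neighbours and not independent samples, so these p-values are likely too small.

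Without the Cacna1e domain, which gave 13 of the 31 pairs, neither p stayed below 0.05, and 18 pairs were left. The difference was then 33.3 points for both motifs, against 35.5 for TGTGGT and 38.7 for GGAAGT in all 31 pairs. Without this domain 66.7% of peaks and 33.3% of windows held TGTGGT (exact McNemar test, p = 0.109). GGAAGT was in 50.0% and 16.7% (exact McNemar test, p = 0.109). With windows 10 kb toward lower coordinates the shares for TGTGGT were 61.3% and 35.5% (exact McNemar test, p = 0.0768). Among the 8 domain peaks at or above the upper quartile of the score 7 hold TGTGGT, and among the other 24 it is in 13. In the list the shares were 65.0% and 50.3%. The strong peak without the hexamer is that of the Cacna1e domain from 156875774 to 156876202, with a score of 31.3. Of the 20 domain peaks with TGTGGT, 10 had one within 50 bp of the centre, and in the list 54.4% of the peaks with the hexamer did.

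**Figure D4:**
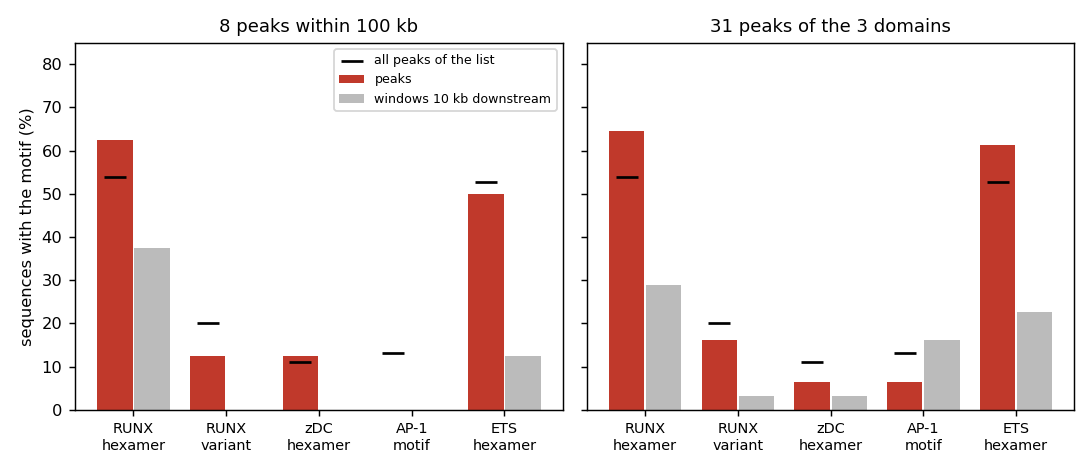
Share of sequences, in percent, that hold each of 5 motifs on either strand. Red bars are peaks, grey bars their windows of equal width 10 kb downstream, toward higher coordinates, and black marks are all 15121 peaks. The left panel has the 8 peaks within 100 kb and the right panel the 31 domain peaks with a usable window. In the right panel the RUNX hexamer reaches 64.5% against 29.0% and the ETS hexamer 61.3% against 22.6%.

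Genes related to the 3 by function were counted for peaks in the body or within 10 kb of it, where 43.4% of protein-coding genes have at least 1. With the bodies of GENCODE M1, Cacna1e has 0 at this distance, as does Asah2, and Zfhx3 has 5. The RefSeq start of Asah2, however, lies 9383 bp from a peak. Of 17 other subunits of voltage-gated calcium channels, 7 had a peak (41.2%). Cacna1b and Cacna1s, which encode pore-forming subunits as Cacna1e does, had 1 peak each in the body, with scores of 9.16 and 20.1, and Cacna1d had 2, the higher with a score of 6.27. Among peaks in the body the highest score in this list was 84.6, in Cacnb2, a beta subunit gene. Cacna1a, Cacna1c, Cacna1f, Cacna1g, Cacna1h and Cacna1i had 0 within 10 kb.

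Of 9 other factors with zinc fingers and homeodomains, 8 had a peak within 10 kb (88.9%), and in 6 a peak lay less than 1 kb from the gene start, as in 22.6% of protein-coding genes. The median body of the 9 is 129 kb, against 15.4 kb for all protein-coding genes, and the share was not adjusted for length. In Zfhx3 the nearest one was at 6412 bp. In Zhx1, Zeb1 and Zhx2 it lay at 104, 236 and 275 bp. Zfhx2 had its nearest peak at 407 bp. Zfhx4 had 0 peaks within 100 kb. None of these genes had more than 2 peaks in the body, against 5 in Zfhx3.

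Of 28 genes of ceramide and sphingosine metabolism, 13 had a peak within 10 kb (46.4%). Among ceramidase genes Asah1, the acid ceramidase, had 1 peak in the body, 151 bp from the gene start with a score of 14.2. Acer1 and Acer3, alkaline ceramidases, each had 1 in the body, and Acer2 had 0 within 100 kb. Smpd1, acid sphingomyelinase, had a peak 13 bp from the gene start, with a score of 53.7. Sgms1, with 8, had the most peaks in the body, followed by Cers6, a ceramide synthase listed as Lass6 in this annotation, with 4. The lists are short, and their shares were not tested against the background of 43.4%. The median body is 130 kb in the list of channel subunits and 33.2 kb in that of ceramide and sphingosine metabolism, both above the 15.4 kb of all protein-coding genes.

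By length and number of peaks in the body together, the protein-coding genes most like Zfhx3 were Ssh2, Srgap2 and Ralgps1, each with 5 peaks in a body of 244, 242 and 238 kb. They had 9, 9 and 6 peaks within 100 kb, against 6 for Zfhx3. Their regulatory domains held 1, 2 and 0, against 9, the number by which Zfhx3 was picked. A domain stops at that of the next annotated gene, coding or noncoding, so it can leave out peaks in the gene's own body. The genes most like Cacna1e, with 0 peaks in the body, were Btbd3, Bmpr1b and Lrfn5, of 332 to 335 kb. They had 0 peaks within 100 kb, and in the domain Bmpr1b had 1 and the other two had 0, against 14 for Cacna1e, which was picked for this number. For Asah2 they were Kdm4b, Rad18 and 4931406P16Rik, all of 76.8 kb, with 9, 1 and 4 peaks within 100 kb and 4, 0 and 1 in their domains, against 9 for Asah2, again the number it was picked for.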

How the data were processed

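Runx3 ChIP-seq of splenic CD4+ DC was analysed from the 1 deposited list of peaks. The authors mapped 50 bp reads to mm9 by bowtie, keeping unique alignments, and called peaks with MACS2 on 2 pooled Runx3 samples against 2 controls. The peak score was deposited as MACS2 wrote it, in a unit not stated. Versions and threshold are not given in the sources used here, except CASAVA 1.8 in the submitters' processing notes. Reads per sample were not analysed here, and where no peak was called, weaker binding may have gone undetected. Positions are 1-based on mm9 (NCBIM37), within whose chromosomes all peaks lay, and genes are from GENCODE M1. A peak's centre set its place, and introns and exons are those of the longest coding transcript. Regulatory domains reach from 5 kb upstream to 1 kb downstream of the TSS. They go on to the next such domain of any annotated gene, coding or noncoding, by at most 1000 kb. Starts of RefSeq promoters were placed by exact sequence match. Windows that overlapped a peak or held unsequenced bases were left out. The sequence of 1 peak is not reported here.

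The genes, lists and tests were chosen with earlier results of these data known. Named genes were the 3 genes, their neighbours, related genes by function, of which 6 were found under an older symbol, and for each gene the 3 protein-coding genes with as many peaks in the body and the closest length. Peaks were compared with windows by exact McNemar tests. These were tried on simulated independent pairs of random sequence, which cannot check p-values for neighbouring peaks. The alternatives were other distances, score limits, joined peaks, assignment rules, window sides and left-out loci. Computation used Python 3.11.15, numpy 2.4.6, pandas 2.3.3, scipy 1.17.1 and matplotlib 3.10.9.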

Additional observations from a re-analysis of the deposited data

How the results depend on the processing

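The number of peaks at the 3 loci was 8 within 100 kb, 5 in the gene bodies alone, 15 within 200 kb, 32 with regulatory domains and 34 with domains of protein-coding genes alone. Counting only scores from the list median up gave 3 peaks, and from the upper quartile up 1. The 5 other settings gave 6 to 11. The share of peaks in an intron of the gene itself, 62.5% within 100 kb, was 15.6% over the domains, 33.3% in the 3 peaks from the list median up and 62.5% with any transcript. The median score, 7.21, was 11.3 over the domains and 6.57 to 7.21 in the 4 other settings.

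For TGTGGT the difference between peaks and windows, 25.0 percentage points in the 8 peaks, was 35.5 points over the domains (exact McNemar test, p = 0.00739) and 39.1 points in the 23 usable peaks beyond 100 kb (exact McNemar test, p = 0.0117), and it kept its direction in the 9 other settings, none of which reached 0.05. Over the domains it was 25.8 points with windows toward lower coordinates and 33.3 points without Cacna1e, both with p above 0.05. In 4 settings p stayed below 0.05. For GGAAGT the difference was 38.7 points over the domains and 33.3 points without Cacna1e. Its p stayed below 0.05 in 5 settings, the closest being windows toward lower coordinates (exact McNemar test, p = 0.049). The causes were not tested. All settings with regulatory domains other than the count of 32, and the RefSeq starts, were chosen after seeing the data. Of the 54 related genes 28 had a peak within 10 kb and 46 within 100 kb. Of all protein-coding genes 43.4% had one within 10 kb and 72.1% within 100 kb.

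No paired analysis was possible because the deposited peaks come from 1 pooled call, and no replicate was left out for the same reason.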
